A study of Homo sapiens with 8 samples.

Results

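XBP1 knockdown in T47D cells under combined stress was described on 4 of the 8 arrays of the series: the 2 titled T47D with the hairpin against XBP1 (shXBP1) and the 2 titled T47D with the control hairpin (shCtrl). T47D is an established luminal, oestrogen receptor-positive breast cancer line. All 4 cultures carried a lentiviral hairpin, were kept in puromycin after infection, and were held for 24 h at 0.1% O2 in glucose-free medium with 10% serum. The 4 other arrays hold MDA-MB-231, a breast cancer line without hormone receptors and of mesenchymal character, with the same hairpins and the same stress, at 2 arrays per hairpin, and were used to share the estimate of spread and to test differences between the lines. Hypoxia and glucose lack were common to all 8 arrays, so their own effect is not part of any comparison, and cells in oxygen and glucose were not analysed here. The comparison asks which transcripts differ between the hairpins in this luminal line under that stress. The labels name no other hairpin against XBP1 and no rescue of it. Direct and later effects of XBP1 loss and other effects of the hairpin thus cannot be told apart. The labels call the replicates biological but do not say whether they were separate infections, so each p-value rests on the spread of these arrays alone, which may be technical.

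XBP1 is a basic leucine zipper transcription factor. When unfolded proteins gather in the endoplasmic reticulum (ER), the sensor IRE1, encoded by ERN1, splices XBP1 mRNA, and the spliced form drives genes for protein entry into the ER, folding, glycosylation, transport and degradation. The other sensors are PERK, encoded by EIF2AK3, which slows translation, and ATF6, which is cut in the Golgi and then acts in the nucleus. In luminal breast cells XBP1 is also a highly expressed oestrogen target. Hypoxia and glucose lack both hinder protein folding in the ER.

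Expression was read as RMA values, which are normalised log2 intensities with no absolute zero, for 19775 genes at 1 probe set each, the brightest with a single gene symbol over the 8 arrays. A difference of 1 on this scale is a 2-fold change in the array signal. A gene was said to rise or fall where limma, fitted to all genes, gave an adjusted p under 0.05. The 4 T47D arrays had near equal medians, replicates correlated at 0.997 to 0.998 across genes, and shCtrl correlated with shXBP1 arrays at 0.979 to 0.980, across genes that are not independent replicates. The median of all probe sets was 5.96, and genes near or below it were called less often: 2.39% rose and 2.22% fell among genes with a mean of 5 or less, against 30.0% and 25% between 9 and 10. Among the brightest genes, above 11, falls were the more frequent, at 25.7% against 17.8% rises, with a median of -0.06. Of all 12701 genes above the median of all probe sets, 21.6% rose and 19.4% fell. Counts within gene lists are to be read beside these shares. The log2 signal of 3' minus 5' control probe sets for ACTB, a measure of RNA integrity, was 1.03 and 0.97 with shCtrl and 0.97 and 1.26 with shXBP1, and that for GAPDH was 0.33 and 0.24 against 0.28 and 0.16. The part of RNA integrity in the results was not tested. Members named to complete a count of 5 or fewer, or to fill a step of an ordered pathway, were chosen after their values were seen.

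XBP1 itself read 12.41 and 12.56 with shCtrl and 7.52 and 7.16 with shXBP1, a log2 change of -5.15 (SE 0.17, adjusted p = 8.68e-06). Both shXBP1 arrays lay far below both control arrays, as the labels state, and the change was -2.69 as the mean over its probe sets. In all, 5746 genes changed, which is 29.1% of those tested. Of these 3071 rose (15.5%) and 2675 fell (13.5%), and the median change over all genes was -0.02. At least 2-fold, 767 rose (3.88%) and 468 fell (2.37%). Without shXBP1 replicate 1 the count that fell was 1733. A gene that rose did so by a median of 0.68 (quartiles 0.49 and 1.00), and a gene that fell by a median of 0.60 (0.44 and 0.86). The arrays of the hairpins did not overlap for 12683 genes (64.1%), so a lack of overlap between 2 and 2 arrays is common in these data. RNA from whole cultures was measured, so fewer cells expressing a gene and less RNA per cell cannot be told apart.

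**Figure D1:**
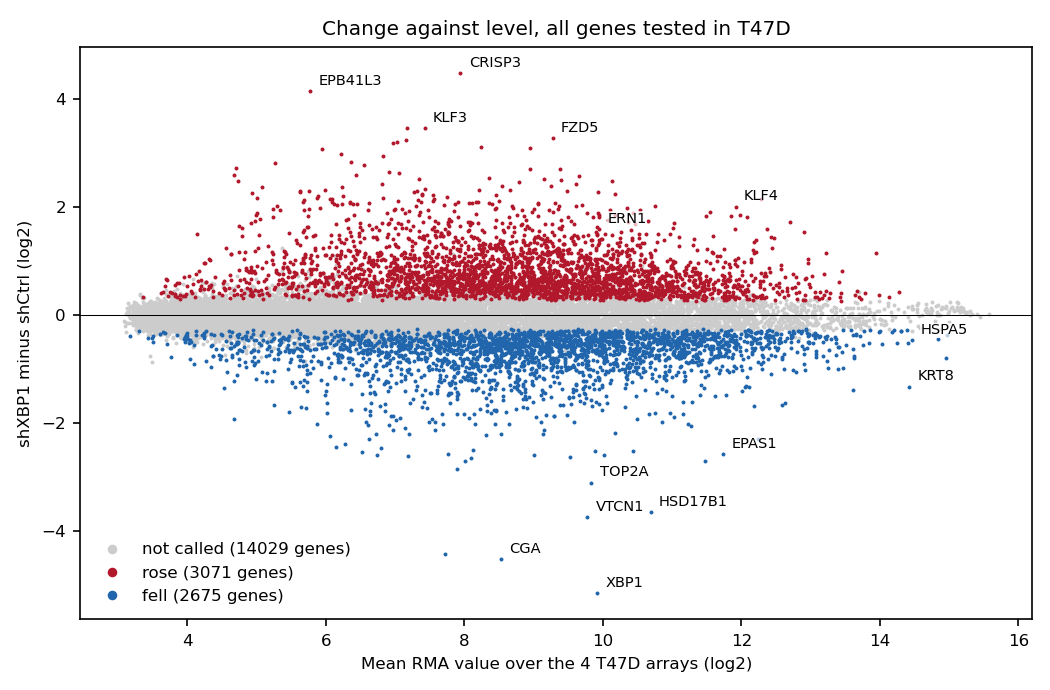
Change of each of 19775 genes (shXBP1 minus shCtrl, log2) against its mean RMA value over the 4 T47D arrays (log2), 1 point per gene. Red points rose (3071), blue points fell (2675) and grey points were not called, and XBP1 is the lowest point.

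Most of the 20 largest rises started from a level near background. For 15 of them the shCtrl mean was under 6, so the size of the rise rests on a control value near background, and its accuracy was not tested. CRISP3, a secreted cysteine-rich protein of glands, read 5.11 and 6.30 with shCtrl and 10.22 and 10.14 with shXBP1. EREG, which encodes the EGF receptor ligand epiregulin, read 5.23 and 5.64 with shCtrl and 8.96 and 8.83 with shXBP1. In both the control arrays differed more from each other than the knockdown arrays did, and all knockdown values lay above all control values. EPB41L3, a membrane skeleton protein, was close in replicates, with 3.68 and 3.73 with shCtrl and 7.88 and 7.81 with shXBP1, and its 3 probe sets gave 4.14, 2.81, 4.55.

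Among ranks 11 to 20 of the rises, HDAC9, a class II histone deacetylase, read 5.36 and 5.35 with shCtrl and 8.50 and 8.11 with shXBP1, a log2 change of 2.95 (SE 0.13, adjusted p = 1.37e-05), but its 4 dimmer probe sets gave values from -0.15 to 0.23 and the mean over its probe sets was 0.65. PLAGL2, a zinc finger transcription factor, changed by 2.66 (SE 0.13, adjusted p = 1.90e-05), and its other probe set gave 1.28. The zinc finger gene ZNF680 read 7.94 and 8.13 with shCtrl and 10.72 and 10.76 with shXBP1 and rose by 2.71. ADRB1, the beta-1 adrenergic receptor, read 3.71 and 4.01 with shCtrl and 6.79 and 6.57 with shXBP1, while its other probe sets gave -0.11 and 0.18. The adhesion receptor gene ADGRL2 was at 2.83 (SE 0.20), a value that rests on a probe set that can match several transcripts, and was 0.02 (adjusted p = 0.925) with such probe sets left out. ANXA1, the calcium-dependent phospholipid-binding protein annexin A1, read 7.56 and 7.63 with shCtrl and 10.37 and 10.24 with shXBP1 and rose by 2.71 (SE 0.10, adjusted p = 8.68e-06). The others were LRRC31 at 3.07, FOXR2 at 2.78 and the noncoding RNAs NUTM2A-AS1 at 2.98 and PURPL at 2.71.

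The genes that fell most started high. None of the 19 largest falls after XBP1 had a control mean under 6. The lowest deposited value was 2.75, so a gene under 6 had little room for a fall of this size. CGA, the shared alpha subunit of the glycoprotein hormones, read 10.50 and 11.07 with shCtrl and 6.54 and 5.99 with shXBP1. VTCN1, which encodes the T cell inhibitory ligand B7-H4, read 11.62 and 11.67 with shCtrl and 7.96 and 7.84 with shXBP1, and HSD17B1, which converts estrone to estradiol, read 12.49 and 12.54 with shCtrl and 8.85 and 8.89 with shXBP1. EPAS1, which encodes the hypoxia-inducible factor HIF-2 alpha, read 12.98 and 13.07 with shCtrl and 10.47 and 10.44 with shXBP1, a log2 change of -2.57 (SE 0.09, adjusted p = 8.68e-06), and its second probe set gave -1.61, while the third, near the lowest values of the array, gave 0.04. For these 4 genes both shXBP1 arrays lay below both shCtrl arrays by more than 2 on the log2 scale. As the mean over probe sets the changes were smaller, at -2.24 for CGA, -2.10 for HSD17B1, whose second bright probe set gave -0.56, and -1.38 for EPAS1.

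Ranks 11 to 20 of the falls held EPAS1 and the following genes. RAB31, a small GTPase of vesicle transport, read 10.75 and 10.93 with shCtrl and 8.23 and 8.19 with shXBP1. FSTL1, a secreted glycoprotein, changed by -2.60 (SE 0.23, adjusted p = 0.000158), and its dimmer probe sets gave -0.98 and -0.08. CCN2, the matricellular connective tissue growth factor, read 10.31 and 10.28 with shCtrl and 7.75 and 7.67 with shXBP1 and fell by 2.58. SLC4A7, a sodium bicarbonate cotransporter, fell at each of its 4 probe sets, with changes of -2.57, -1.37, -1.19, -0.92. The calcium-binding gene S100A14 was at -2.62, the muscle genes ACTA1 and TNNC1 at -2.60 and -2.54, the linker histone gene H1-2 at -2.52 and the quinone reductase gene CRYZ at -2.51.

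**Figure D2:**
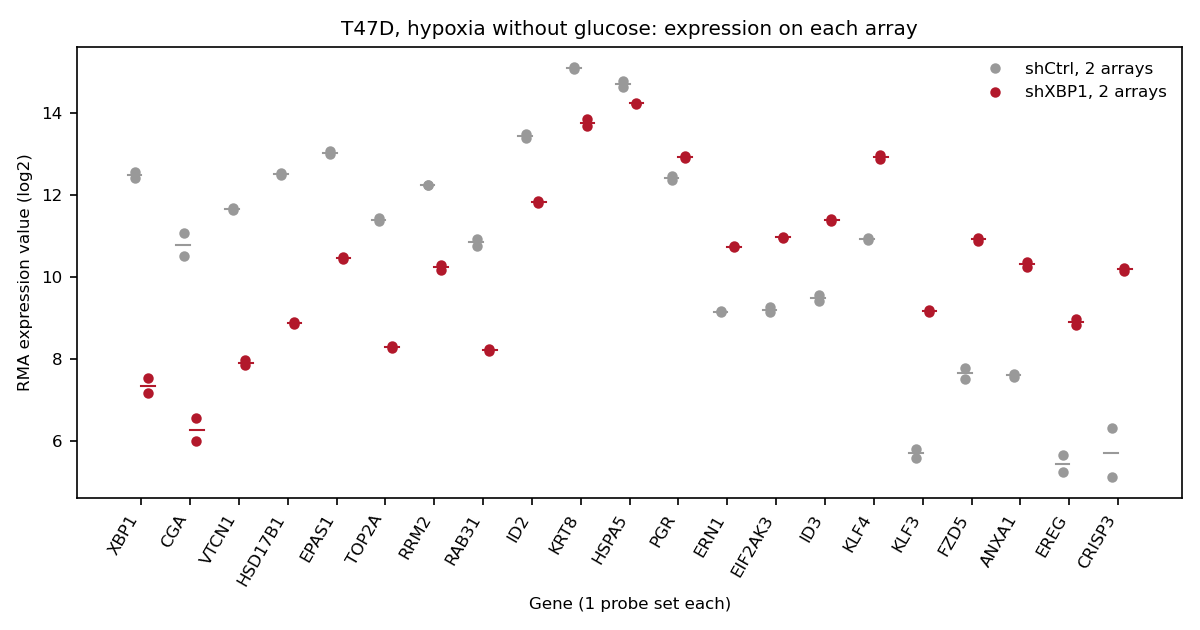
RMA expression values (log2) of 21 genes on the 4 T47D arrays. Grey points are the 2 shCtrl arrays, red points the 2 shXBP1 arrays and short lines their means, and for every gene shown the 2 colours do not overlap.

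Several probe sets of a gene measure different stretches of its transcripts, which tells more than 1 probe set about whether the whole transcript moved. Of 6085 genes with at least 2 single-symbol probe sets above the median of all probe sets, 597 had all of them called up and 530 all called down. Another 156 had calls in opposite directions, 2298 had some but not all called, and 2504 had none. Over all 41091 probe sets 24.3% were called, 13.2% up and 11% down. Ranked by their least changed probe set, the rises opened with ANXA1 (probe sets at 2.71, 2.63), then HEY2, a repressor downstream of Notch (at 2.47, 2.80). RESF1, a silencer of retroelements, gave 2.53, 2.47, and TNFSF10, the death receptor ligand TRAIL, gave 2.32, 2.53, 2.94. DUSP10, a phosphatase of stress-activated kinases, gave 2.52, 2.30, and CREB5, a CRE-binding factor, gave 2.52, 1.91, 2.15, 2.59.

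The falls ranked in this way were led by TOP2A, the DNA topoisomerase of dividing cells, whose bright probe sets gave -3.10 and -3.08, then by RAB31 (-2.63, -2.57, -2.49) and the histone gene H4C8 (-2.20, -2.38). RRM2, the small subunit of ribonucleotide reductase, gave -2.01, -1.99, and CTH, which makes cysteine from cystathionine, gave -1.75, -1.76. CYP1B1, which hydroxylates estradiol, gave -1.84, -1.76 and -1.63 at its 3 bright probe sets. ANGPTL4, an inhibitor of lipoprotein lipase, gave -1.63, -1.87, and EPAS1 stood last of the 12.

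Among 20 genes for the sensors and transcription factors of the unfolded protein response, 5 rose and 5 fell, with XBP1, the hairpin target, among the falls. Each count was 25% of the list, near the 21.6% risen and 19.4% fallen among all genes above the median of all probe sets. EIF2AK3 read 9.13 and 9.25 with shCtrl and 10.97 and 10.95 with shXBP1, a log2 change of 1.77 (SE 0.10, adjusted p = 3.62e-05). ERN1, the sensor that acts on XBP1 mRNA, read 9.14 and 9.15 with shCtrl and 10.75 and 10.72 with shXBP1, a log2 change of 1.59 (SE 0.10, adjusted p = 5.13e-05). Both sensors were higher on every knockdown array than on either control array. These values come from the brightest probe set, and the other EIF2AK3 probe set, near the lowest values of the array, gave -0.12, while the other ERN1 probe sets gave -0.37 and 0.31, without a call. PPP1R15A, which encodes the phosphatase subunit GADD34, rose by 0.89. CEBPB was at 0.50, a call lost without shCtrl replicate 1 (0.43, adjusted p = 0.0642) or shXBP1 replicate 1 (0.47, adjusted p = 0.0661). CREB3L2 was at 0.42, but its mean over probe sets was -0.35 (adjusted p = 0.0158), so its direction depends on the probe set. MBTPS2, the site-2 protease that frees ATF6 from the Golgi membrane, read 12.23 and 12.20 with shCtrl and 11.08 and 11.21 with shXBP1 and changed by -1.07 (SE 0.11, adjusted p = 0.000294), with -0.36 as the mean over its probe sets. NFYB, a subunit of the CCAAT-binding factor NF-Y, changed by -1.01 (SE 0.10), and its bright probe sets gave -1.01, -0.47 and -0.50. ATF6 at -0.28 and CREB3L4 at -0.41 made up the count that fell with XBP1, and the ATF6 call was lost without any single T47D array (adjusted p from 0.118 to 0.150). Without shCtrl replicate 1 or shXBP1 replicate 1 the count that rose was 3, and without shCtrl replicate 2 or either shXBP1 replicate the count that fell was 3.

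The ER stress element is the sequence through which ATF6, with NF-Y and in part XBP1, acts on chaperone genes. It was searched as CCAAT and CCACG at the element's fixed spacing, on both strands of RefSeq promoter windows of GRCh38.p14, which reach from 250 bases before the annotated start to 50 bases after it. Of the tested genes, 15384 matched a window by symbol, and 0.104% of these windows held it, against 5 of the 20 windows found for ER chaperones and co-chaperones. The windows of HSPA5 (chr9:125241371-125241429, minus strand), CRELD2 (chr22:49918534-49918592, plus strand), HSP90B1 (chr12:103930196-103930254, plus strand) and CALR (chr19:12938364-12938422, plus strand) are printed 5' to 3' as read along the gene, to show members of both outcomes, with the match in capitals:
HSPA5: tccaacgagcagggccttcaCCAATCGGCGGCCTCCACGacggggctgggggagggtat
CRELD2: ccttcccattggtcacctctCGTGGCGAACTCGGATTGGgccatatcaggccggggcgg
HSP90B1: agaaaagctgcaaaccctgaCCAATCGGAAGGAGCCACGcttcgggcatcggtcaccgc
CALR: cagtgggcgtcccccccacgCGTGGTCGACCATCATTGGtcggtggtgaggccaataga
HSPA5 and CRELD2 fell, by 0.47 and 0.67, while HSP90B1 at 0.01 and CALR at 0.17 did not pass the test. The match in HSPA5 begins 66 bases before its start. The matches in CRELD2 and CALR are read from the strand opposite to the gene, so their capitals are the reverse complement. The CRELD2 stretch also lies upstream of ALG12, a neighbour read from the other strand, which was at 0.08 and not called.

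Of 23 ER chaperones and co-chaperones, 9 fell, 3 rose and 11 did not pass, with a list median of -0.23, and 5 fell with probe sets that may match several transcripts left out. FKBP10, a collagen-associated prolyl isomerase, read 7.52 and 7.35 with shCtrl and 6.16 and 5.79 with shXBP1, a log2 change of -1.46 (SE 0.13, adjusted p = 0.000183). SDF2L1, which slows the aggregation of BiP clients, read 10.63 and 10.73 with shCtrl and 9.73 and 9.75 with shXBP1 and changed by -0.95 (SE 0.09, adjusted p = 0.000214). HSPA5, the gene of BiP, read 14.64 and 14.77 with shCtrl and 14.24 and 14.23 with shXBP1 and changed by -0.47 (SE 0.10, adjusted p = 0.00782), a call lost without shCtrl replicate 2 (-0.41, adjusted p = 0.0545) or shXBP1 replicate 2 (-0.46, adjusted p = 0.0524). A second HSPA5 probe set, which reads a dimmer signal, went from 10.2 to 8.1 (-2.09). DNAJB9, a BiP co-chaperone, read 11.45 and 11.46 with shCtrl and 10.95 and 11.05 with shXBP1 and changed by -0.46 (SE 0.09, adjusted p = 0.00749), a call lost without shXBP1 replicate 1 (-0.40, adjusted p = 0.0647). DNAJC10, a disulfide reductase that works with BiP, was at -0.73 and CRELD2 at -0.67. The 3 that rose were the prolyl isomerases FKBP11 at 0.82, FKBP9 at 0.44 and FKBP14 at 0.42, of which FKBP9 (adjusted p from 0.0661 to 0.0896) and FKBP14 (from 0.0901 to 0.152) lost their call without any single T47D array, leaving 1. FKBP11 was at 0.47 (adjusted p = 0.0676) with probe sets that may match several transcripts left out. Of 17 disulfide isomerases and oxidases 3 rose (QSOX1 at 0.65, ERP29 at 0.47 and PDIA3 at 0.33) and 3 fell (PRDX4 at -0.50, PDIA6 at -0.39 and TXNDC12 at -0.31). Each count was 17.6% of the list, near the 21.6% risen and 19.4% fallen among all genes above the median of all probe sets. The first count was 1 without shCtrl replicate 1 or either shXBP1 replicate, the second was 1 without either shCtrl replicate or shXBP1 replicate 2, and PDIA3 was at -0.76 as the mean over probe sets. Under that mean 7 of the list fell and 1 rose, and QSOX1 was at 0.38 (adjusted p = 0.0501).

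The N-glycan pathway held the most falls of the secretory lists. It builds a sugar chain on the lipid dolichol, which oligosaccharyltransferase (OST) then moves onto proteins entering the ER. Of 34 measured genes 19 fell (14 to 19 without a single array), 2 rose and 13 did not pass, and the median was -0.37. DPAGT1, which adds the first sugar, read 11.40 and 11.35 with shCtrl and 10.16 and 10.17 with shXBP1 and changed by -1.21 (SE 0.11, adjusted p = 0.000179). The next enzyme, ALG14 with its partner ALG13, gave -0.86 for ALG14 (-0.35, adjusted p = 0.0775, as the mean over probe sets) and -0.17, not called, for ALG13. ALG1, which adds the first mannose, was at -0.83, ALG6, which adds the first glucose, at -0.85, and DPM3, of the dolichol phosphate mannose synthase, at -0.97. Among OST subunits, TMEM258 read 13.75 and 13.72 with shCtrl and 12.77 and 12.75 with shXBP1 and changed by -0.97 (SE 0.08, adjusted p = 0.000132), STT3A, a catalytic subunit, was at -0.74, and DAD1 at -0.52. KRTCAP2, which was at -1.41 at a probe set that may match several transcripts, had 0.30 (adjusted p = 0.241) at its other probe set, which was dim. ALG2 at 0.40 and UGGT2 at 0.39 made up the count that rose (0 rose without shCtrl replicate 1 or shXBP1 replicate 2, and 1 without shXBP1 replicate 1), and as the mean over probe sets they were at 0.22 (adjusted p = 0.0606) and 0.06 (adjusted p = 0.729).

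Protein entry into the ER, export and degradation gave smaller shares, with 37.5%, 19.2% and 33.3% fallen in that order. Of all genes above the median of all probe sets 19.4% fell. Of 24 genes of the translocon, signal recognition and signal peptidase, 9 fell and 3 rose. The count that fell was 5 without shCtrl replicate 1 and 2 without any other single T47D array, so most of these falls rest on all 4 arrays. SEC11C, a signal peptidase subunit, read 9.99 and 10.19 with shCtrl and 9.27 and 9.35 with shXBP1 and changed by -0.78 (SE 0.11, adjusted p = 0.00121), while SRPRA, the receptor subunit for the signal recognition particle, rose by 0.87. The others that rose were SRP9 at 0.44 and SRP19 at 0.43, and 1 rose without shXBP1 replicate 2. Of 24 genes of ER-associated degradation 8 fell (4 without shCtrl replicate 2 or shXBP1 replicate 2) and 2 rose, SEL1L at 0.54 and UBE2G2 at 0.57, but as the mean over probe sets they were at 0.34 (adjusted p = 0.0921) and 0.16 (adjusted p = 0.217) and 0 rose, and UBE2G2 was at -0.46 with probe sets that may match several transcripts left out. EDEM2, which trims mannose from misfolded proteins, read 8.09 and 8.30 with shCtrl and 7.16 and 7.21 with shXBP1, and SELENOS, a selenoprotein of the retrotranslocation complex, read 12.37 and 12.46 with shCtrl and 11.41 and 11.46 with shXBP1. Of 26 genes of the COPII coat and its cargo receptors 5 fell (3 without shXBP1 replicate 1) and 2 rose (5 without either MDA-MB-231 shXBP1 array). The COPII share of falls, at a shCtrl median of 11.4, was below the 25.7% of all genes above 11. PREB, the exchange factor that starts coat assembly, changed by -1.01 (SE 0.09), and the cargo receptor gene TMED9 by -0.87 (SE 0.09). The others that fell were ERGIC1 (-0.62), LMAN1 (-0.41) and SEC13 (-0.31), the last lost without any single T47D array (adjusted p from 0.0614 to 0.154), and those that rose were SEC24B (0.53) and ERGIC2 (0.40), 1 of them without shXBP1 replicate 2.

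Of 17 genes of the COPI coat and the KDEL receptors, which bring escaped ER proteins back from the Golgi, 8 fell (5 without shXBP1 replicate 2) and 2 rose. KDELR3 read 8.71 and 9.01 with shCtrl and 7.32 and 7.71 with shXBP1, a log2 change of -1.35 (SE 0.16, adjusted p = 0.000531), and its other probe sets gave -0.95 and -0.60. The coat subunit genes COPZ2 and COPG1 were at -1.15 and -0.89, and GBF1, an exchange factor for ARF GTPases, rose by 0.80. ARF1 was at 0.41, a call lost without shCtrl replicate 1 (0.26, adjusted p = 0.157) or either shXBP1 replicate (0.36, adjusted p = 0.163, and 0.47, adjusted p = 0.0760). The unfolded protein response element, searched as TGACGTGG on both strands, was in 6 of 15 windows of this list and in 0.962% of the windows of all tested genes. Windows of 3 members of the secretory lists that fell, KDELR3 (chr22:38468030-38468077, plus strand), DNAJC10 (chr2:182716112-182716159, plus strand) and HYOU1 (chr11:119057366-119057413, minus strand), are shown as examples with the element upstream of the start. The match is in capitals, read on the opposite strand in KDELR3 and DNAJC10. In HYOU1 it overlaps a match to ER stress element II, which joins ATTGG and CCACG:
KDELR3: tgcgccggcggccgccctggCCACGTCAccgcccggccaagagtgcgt
DNAJC10: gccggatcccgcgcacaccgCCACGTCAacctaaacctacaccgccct
HYOU1: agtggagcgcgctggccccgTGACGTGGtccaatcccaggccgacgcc
Over the 7 secretory lists the element was in 7 of 52 windows of genes that fell and in 9 of 90 of those that did not, so its share was close in both (13.5% and 10.0%). Upstream matches not printed were in COPB1, UBE2J1 and VCP, which fell, and in ARF1 (0.41) and SRP19 (0.43), which rose. SEC24A (0.34), SEC62 (0.03) and COPB2 (-0.22), not called, also had them. Of the 165 genes of these lists 61 fell, 17 rose and 87 did not pass, with a median of -0.20.

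Genes of lipid synthesis fell more often than they rose. Of 24 genes of fatty acid and glycerolipid synthesis 13 fell and 3 rose, with a median of -0.47 (8 fell without shCtrl replicate 2 or shXBP1 replicate 2). ACLY, which makes cytosolic acetyl-CoA from citrate, read 12.82 and 12.74 with shCtrl and 11.43 and 11.47 with shXBP1, a log2 change of -1.33 (SE 0.08, adjusted p = 4.85e-05). ACSS2, which makes it from acetate, was at -0.82, and the fatty acid synthase gene FASN, which read 9.61 and 9.47 with shCtrl and 8.53 and 8.52 with shXBP1, at -1.01 (-0.50 as the mean over probe sets). The desaturase gene SCD was at -0.66 and the transcription factor gene SREBF1 at -0.66. The rises were the elongase gene ELOVL2 (1.24), the phosphatidate phosphatase gene LPIN1 (0.99) and the acyltransferase gene GPAM (0.71).

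Of 21 genes of cholesterol synthesis and uptake 10 fell (6 without shCtrl replicate 2) and 3 rose, with a median of -0.32. In the order of the pathway, HMGCS1 rose by 0.54, IDI1 and FDPS were at -0.60 and -0.60, and SQLE, the squalene epoxidase gene, read 11.47 and 11.50 with shCtrl and 10.81 and 10.89 with shXBP1 (-0.64). Later steps gave MSMO1 at -0.68, NSDHL at -0.51 and EBP at -0.63. SC5D, the step after EBP, was at 0.76, but at -0.35 (adjusted p = 0.323) with probe sets that may match several transcripts left out. HSD17B7, the remaining rise, was at 0.44, a call lost without either shCtrl replicate (0.43 and 0.46, adjusted p = 0.0995 and 0.0810) or shXBP1 replicate 2 (0.32, adjusted p = 0.161).

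Of 29 genes of uptake and glycolysis 12 fell and 6 rose, with a median of -0.08. With probe sets that may match several transcripts left out 5 fell. That list also holds the kinase gene PDK4, which is described with pyruvate dehydrogenase below. Among transporters, SLC2A1 read 11.50 and 11.65 with shCtrl and 10.48 and 10.38 with shXBP1 and SLC2A3 read 6.97 and 6.77 with shCtrl and 4.84 and 4.89 with shXBP1. SLC2A1 changed by -1.15 (SE 0.12, adjusted p = 0.000355) and SLC2A3 by -2.01 (SE 0.10, adjusted p = 2.20e-05), while SLC2A10 rose by 1.52. HK2, a hexokinase gene, was at 0.86 but at -0.24 (adjusted p = 0.0765) as the mean over its probe sets, and the phosphofructokinase genes PFKL, PFKM and PFKP were at 0.06, -0.02 and -0.08, none called. Of the enzymes that set the level of its activator fructose 2,6-bisphosphate, PFKFB4 rose by 1.51 and PFKFB2 was at -1.29 (-0.36 as the mean over probe sets). The lower steps fell at TPI1 (-0.81), GAPDH (-0.51), PGAM1 (-0.85) and ENO1 (-0.63), but not at PGK1 (-0.06) or LDHA (-0.02), which did not pass. VEGFA, the vascular growth factor gene induced by hypoxia, read 12.90 and 12.93 with shCtrl and 13.42 and 13.26 with shXBP1, or 0.42 (SE 0.11, adjusted p = 0.0222), a call lost without either shCtrl replicate (0.41 and 0.44, adjusted p = 0.0961 and 0.0795) or shXBP1 replicate 1 (0.34, adjusted p = 0.148).

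Genes that bring pyruvate into the citric acid cycle, and those of the cycle, fell more often than they rose. Pyruvate dehydrogenase joins glycolysis to the cycle and is inhibited by the PDK kinases. Of 22 genes of the complex and the cycle 13 fell, 1 rose and 8 did not pass, with a median of -0.42. PDHA1 read 11.71 and 11.77 with shCtrl and 10.93 and 10.97 with shXBP1, a log2 change of -0.80 (SE 0.08, adjusted p = 0.000304), and PDHB, DLAT and PDHX were at -0.57, -0.70 and -0.67. The kinase genes moved in different directions, with PDK4, which read 3.75 and 3.87 with shCtrl and 5.996 and 6.13 with shXBP1, at 2.25, PDK1 at 0.62 and PDK2 at -0.47. The dimmer PDK4 probe sets gave 0.08 and 0.03. PDK4 and PDK1 are not counted in this list, and PDK4 is counted with uptake and glycolysis. SUCLA2, the ATP-forming succinyl-CoA ligase subunit, read 10.77 and 10.77 with shCtrl and 9.14 and 9.11 with shXBP1, a log2 change of -1.64 (SE 0.09, adjusted p = 3.50e-05), the largest of the cycle. IDH2 was at -0.87 and the pyruvate carboxylase gene PC at -0.82, and MPC2, of the pyruvate carrier, at 0.33 was the one that rose (0 without any single T47D array).

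**Figure D3:**
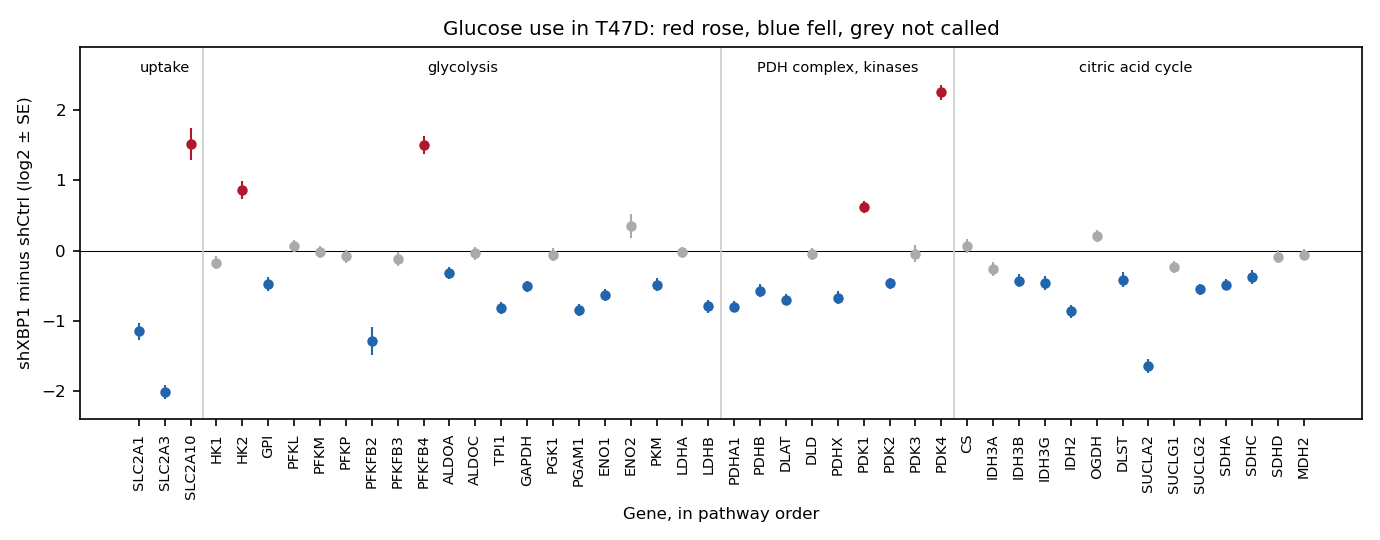
Change in T47D (shXBP1 minus shCtrl, log2, with the limma standard error as bars) of 46 genes in the order of uptake, glycolysis, pyruvate dehydrogenase and the citric acid cycle. Red points rose, blue points fell and grey points were not called, and PDK4 (2.25) and SLC2A3 (-2.01) mark the ends of the range.

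Over 69 measured genes of complexes I, III and IV and of ATP synthase, 34 fell, 1 rose and 34 did not pass, with a median of -0.29, and the falls ran from -0.96 to -0.28. Genes often used as references had a median of -0.28, and the shCtrl medians of the 3 lists, 12.2, 13.4 and 13.7, lie in the range above 11, where falls were the more frequent among all genes. In complex I 17 of 33 fell and 0 rose in limma, 24 had an unadjusted p under 0.05 (11 fell without shCtrl replicate 1 or shXBP1 replicate 1), with 32 of 33 values below 0. NDUFA7 read 11.09 and 11.23 with shCtrl and 10.23 and 10.16 with shXBP1, a log2 change of -0.96 (SE 0.09, adjusted p = 0.000234), and the flavoprotein subunit gene NDUFV2 changed by -0.68 (SE 0.08, adjusted p = 0.000683). In complexes III and IV 9 of 18 fell, but 5, 3, 2 and 3 did so without shCtrl replicate 1, shCtrl replicate 2, shXBP1 replicate 1 and shXBP1 replicate 2. CYC1, which encodes cytochrome c1, read 12.27 and 12.30 with shCtrl and 11.83 and 11.76 with shXBP1 and changed by -0.49 (SE 0.09, adjusted p = 0.00463). In ATP synthase 8 of 18 fell (3 or 4 without a single T47D array), with ATP5F1D at -0.87 (SE 0.09) and ATP5MC1 at -0.58 (SE 0.09). ATP5F1A, the alpha subunit, was at -0.77 but at -0.32 (adjusted p = 0.257) with probe sets that may match several transcripts left out. DMAC2L rose by 0.76.

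Of 75 genes for proteins of the mitochondrial ribosome 9 rose (2 without shCtrl replicate 1 or either shXBP1 replicate, and 4 without shCtrl replicate 2) and 8 fell, and the median was -0.01. The rises and falls were 12% and 10.7% of the list, at a shCtrl median of 11.3, against 17.8% and 25.7% of all genes above 11. MRPL50 read 9.34 and 9.37 with shCtrl and 8.15 and 8.15 with shXBP1, a log2 change of -1.20 (SE 0.09, adjusted p = 7.52e-05), and MRPL28 was at -0.92. The proteasome, which degrades proteins marked with ubiquitin, had 13 of 30 genes fallen and 0 risen in limma, 18 with an unadjusted p under 0.05 in either direction, with a median of -0.26 at a shCtrl median of 12.03, also in the bright range (8 fell without shXBP1 replicate 1, and 1 rose without either MDA-MB-231 shCtrl array). PSMD2 and PSMD1, the large base subunits of the regulatory particle, read 12.26 and 12.26 with shCtrl and 11.52 and 11.40 with shXBP1 for PSMD2 and 11.44 and 11.44 with shCtrl and 10.68 and 10.65 with shXBP1 for PSMD1. They changed by -0.80 and -0.77, the ATPase gene PSMC3 by -0.78, and PSMB8, of the immunoproteasome, by -0.72.

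Mitosis genes had the largest share of falls among the lists. Of 51 genes of mitosis 36 fell, 1 rose and 14 did not pass, with a median of -0.56, and in 40 both shXBP1 arrays lay below both shCtrl arrays (arrays did not overlap, in either direction, for 64.1% of all genes). TOP2A read 11.42 and 11.35 with shCtrl and 8.26 and 8.30 with shXBP1, a log2 change of -3.10 (SE 0.12, adjusted p = 9.16e-06). CDCA8, a subunit of the chromosomal passenger complex, read 9.68 and 9.59 with shCtrl and 8.52 and 8.50 with shXBP1 and changed by -1.12 (SE 0.09, adjusted p = 0.000117). PRC1, which bundles microtubules in the spindle midzone, read 11.40 and 11.45 with shCtrl and 10.37 and 10.39 with shXBP1 and changed by -1.05 (SE 0.08, adjusted p = 0.000115). The kinetochore gene NDC80 was at -1.004 and the checkpoint kinase gene BUB1 at -0.97. TOP2A stood apart in size, since the other falls ran from -1.12 to -0.29. MKI67 at -0.04, PLK1 at -0.03 and FOXM1 at -0.22, chosen after their values were seen, did not pass, though MKI67 was at -0.30 (adjusted p = 0.0193) as the mean over its probe sets. The condensin gene SMC4, the one that rose, was at 0.58, but at -0.29 (adjusted p = 0.0969) as the mean over its probe sets.

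Of 47 genes of DNA replication 29 fell, 5 rose (3 without shXBP1 replicate 1) and 13 did not pass, with a median of -0.41. RRM2 read 12.23 and 12.24 with shCtrl and 10.16 and 10.29 with shXBP1, a log2 change of -2.01 (SE 0.09, adjusted p = 1.37e-05). CDC6, which loads the replicative helicase, read 9.11 and 9.14 with shCtrl and 7.66 and 7.85 with shXBP1, and the helicase subunit genes MCM3 and MCM6 changed by -1.15 and -1.12. POLE2, of DNA polymerase epsilon, was at -1.29. The rises were GINS3 (0.90), DBF4 (0.60), and the origin recognition genes ORC2 (0.50), ORC3 (0.42) and ORC4 (0.27), the last lost without any single T47D array (adjusted p from 0.113 to 0.203). In the list of G1 cyclins, E2F factors and inhibitors, 8 of 27 rose (5 without shXBP1 replicate 2) and 6 fell. These were 29.6% and 22.2% of the list, against 21.6% and 19.4% of all genes above the median of all probe sets. CDKN2B, which encodes the CDK4 inhibitor p15, read 5.12 and 5.18 with shCtrl and 7.20 and 7.49 with shXBP1 (1.19 as the mean over probe sets). E2F6, a repressor among the E2F factors, read 7.89 and 8.18 with shCtrl and 9.97 and 10.002 with shXBP1, and the activator E2F3 was at 1.59. CCNE2, a cyclin of the entry to S phase, was at -0.88, and CCND1, the cyclin D1 gene, read 9.68 and 9.53 with shCtrl and 9.52 and 9.71 with shXBP1, which overlapped, without a call, at 0.01 (SE 0.11, adjusted p = 0.951).

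The cell cycle homology region is a short promoter element bound by the MuvB complexes that time mitotic genes. It was searched as TTTGAA or TTCGAA on both strands. The element was in 32 of 44 windows found for the mitosis list and in 13.3% of the windows of all tested genes, and in 23 of 31 windows of members that fell and 9 of 13 of those that did not. The E2F site, searched as TTTCGCGC, was in 5 of 41 windows of the replication list and in 0.767% of all. Windows of CDCA8 (chr1:37692468-37692515, plus strand), PRC1 (chr15:90994536-90994580, minus strand), TOP2A (chr17:40418017-40418072, minus strand) and MKI67 (chr10:128126424-128126477, minus strand) show the first element, and that of MCM6 (chr2:135876497-135876554, minus strand) the E2F site, in capitals. The capitals of TOP2A and MCM6 are the reverse complement of the letters searched:
CDCA8: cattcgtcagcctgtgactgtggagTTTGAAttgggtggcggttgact
PRC1: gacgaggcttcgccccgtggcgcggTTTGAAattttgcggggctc
TOP2A: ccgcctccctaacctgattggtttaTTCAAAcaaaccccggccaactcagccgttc
MKI67: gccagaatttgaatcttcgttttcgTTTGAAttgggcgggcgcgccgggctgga
MCM6: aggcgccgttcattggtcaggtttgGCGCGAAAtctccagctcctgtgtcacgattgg
These genes moved by -1.12, -1.05, -3.10, -0.04 and -1.12 in that order, so windows with a match were found both among members that fell and beside MKI67, which was not called.

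Amino acid and translation genes went both ways. In the amino acid list 30.8% fell and 19.2% rose, against 19.4% and 21.6% of all genes above the median of all probe sets. Of 26 genes of amino acid synthesis and uptake 8 fell (5 without shXBP1 replicate 2) and 5 rose (3 without shCtrl replicate 1 or shXBP1 replicate 1). PSPH, the last enzyme of serine synthesis, read 8.08 and 8.14 with shCtrl and 9.61 and 9.59 with shXBP1, a log2 change of 1.49 (SE 0.10, adjusted p = 6.48e-05), while SLC7A5, the large neutral amino acid transporter, read 12.95 and 12.998 with shCtrl and 11.88 and 11.87 with shXBP1, a log2 change of -1.10 (SE 0.10, adjusted p = 0.000174). SLC7A11, the cystine transporter, was at 0.92 and ALDH18A1, of proline synthesis, at 0.86, and the transporter genes SLC3A2 (0.43) and SLC38A2 (0.37) were the rises lost in those fits. Of 17 cytosolic aminoacyl-tRNA synthetases 7 rose (4 without shXBP1 replicate 1) and 2 fell (CARS1 and VARS1, at -0.61), and the highest was WARS1, for tryptophan, at 1.28 (SE 0.09) with its other probe set at 0.97. The amino acid response element bound by ATF4, searched as TTGCATCA, was in 5 of 14 synthetase windows and in 0.722% of all. Those 5 were AARS1 (0.50), TARS1 (0.30), CARS1 (-0.79), IARS1 (-0.15) and NARS1 (-0.14), of which the first pair rose, CARS1 fell and the others were not called, and the TARS1 call was lost without any single T47D array (adjusted p from 0.0661 to 0.158). Of 29 ribosome biogenesis genes 9 rose (4 without shCtrl replicate 1, and 5 without shCtrl replicate 2 or shXBP1 replicate 2) and 2 fell, with NOP14 at 0.62 and the nucleolar genes NOLC1 at -0.74 and NCL at -0.29, the last lost without any single T47D array (adjusted p from 0.140 to 0.177).

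**Figure D4:**
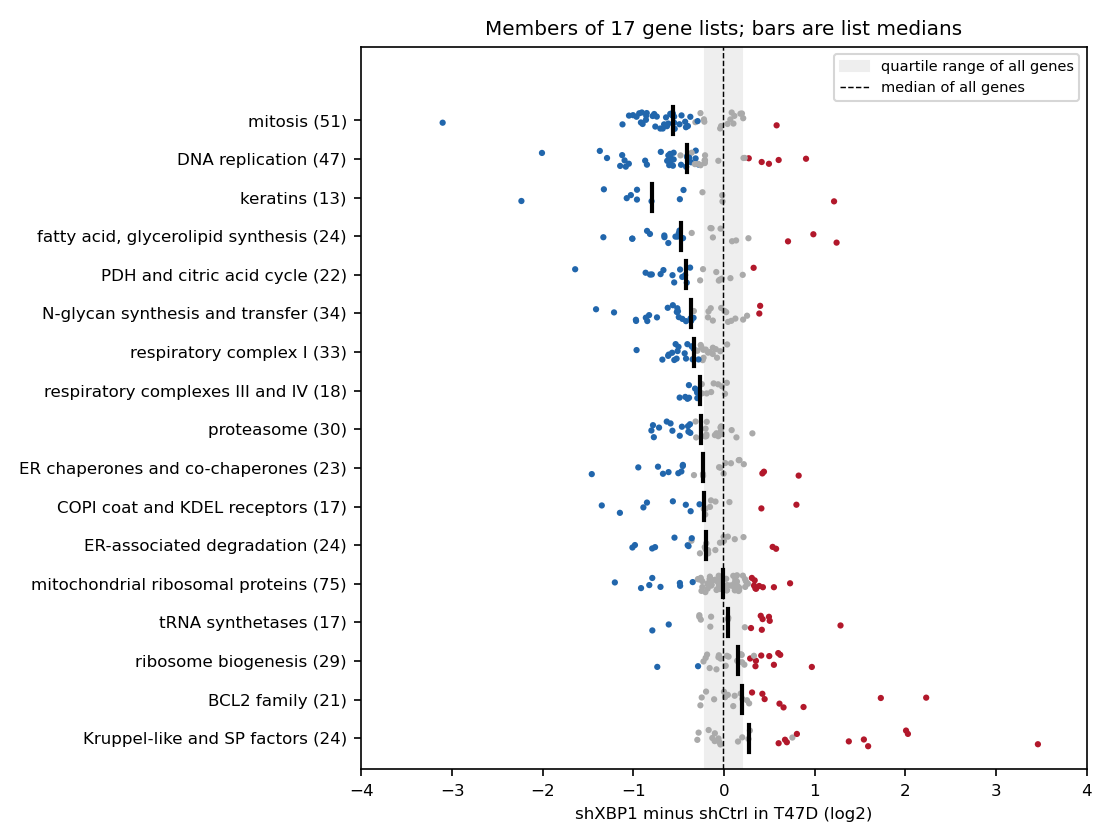
Change in T47D (shXBP1 minus shCtrl, log2) of each measured member of 17 gene lists, with the number of members after each name. Red points rose, blue points fell, grey points were not called, thick bars are list medians, the grey band runs between the quartiles of all genes, and the bars run from -0.80 for keratins to 0.28 for Kruppel-like and SP factors.

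Hormone genes did not move as a block. In the oestrogen receptor list 26.7% rose and 26.7% fell, against 21.6% and 19.4% of all genes above the median of all probe sets. Of 30 genes for the oestrogen receptor, its cofactors and targets 8 rose (5 without shCtrl replicate 1, and 4 without any other single T47D array) and 8 fell. ESR1, the receptor gene, read 10.24 and 10.25 with shCtrl and 10.59 and 10.67 with shXBP1, or 0.39 (SE 0.11, adjusted p = 0.0298). That call was lost without any single T47D array (changes from 0.35 to 0.43), and the mean over 9 probe sets was -0.19. Another ESR1 probe set above the median of all probe sets was called the other way, at -0.998 (adjusted p = 0.000765 in limma over all probe sets). The direction of ESR1 thus depends on the probe set. PGR, the progesterone receptor gene and an oestrogen target, read 12.46 and 12.35 with shCtrl and 12.89 and 12.94 with shXBP1, or 0.51 (SE 0.12, adjusted p = 0.0129), a call lost without shCtrl replicate 2 (0.45, adjusted p = 0.0782), shXBP1 replicate 1 (0.54, adjusted p = 0.0570) or shXBP1 replicate 2 (0.48, adjusted p = 0.0806), while its second probe set was at 0.79. TFF1, a classical oestrogen target, read 12.01 and 12.18 with shCtrl and 10.57 and 10.41 with shXBP1, a log2 change of -1.60 (SE 0.10, adjusted p = 4.69e-05). PDZK1, a scaffold protein, changed by -1.35 (SE 0.09), and ADCY9, an adenylyl cyclase, by 1.67 (SE 0.12) and by 0.75 as the mean over probe sets.

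Enzymes of oestrogen and androgen metabolism gave 6 of 22 up and 6 down. Each was 27.3% of the list, against 21.6% risen and 19.4% fallen among all genes above the median of all probe sets. HSD17B1, named above, changed by -3.65 (SE 0.12, adjusted p = 8.68e-06), and CYP1B1, which read 12.09 and 12.08 with shCtrl and 10.18 and 10.31 with shXBP1, by -1.84 (SE 0.10, adjusted p = 2.54e-05). AKR1C3, which reduces estrone and androstenedione, read 4.25 and 4.27 with shCtrl and 6.20 and 6.22 with shXBP1, so its control level lay well under the median of all probe sets. CYP1A1, a target of the aryl hydrocarbon receptor, was at 1.46. UGT2B15 was at 2.17, but belongs to a family of near-identical genes, and read -0.21 (adjusted p = 0.212) with probe sets that may match several transcripts left out. Among 28 secreted and surface products of luminal cells 8 rose (4 without any single T47D array) and 5 fell, with MUC1 at 1.83, 2.64 and 1.71 at its probe sets, the adhesion molecule gene CEACAM6 at 1.94 (SE 0.28) and PLAC8 at -2.70 (SE 0.09). With PLAC8, VTCN1, SERPINA1 (-1.11, but -0.30 with adjusted p = 0.335, no call, with probe sets that may match several transcripts left out), CLU (-0.90) and LCN2 (-0.49) made up the falls, and LCN2 was lost without any single T47D array (adjusted p from 0.0763 to 0.0922).

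Keratins, the intermediate filaments of epithelium, had the lowest list median, -0.80. Of 13 measured 9 fell, 1 rose and 3 did not pass. KRT8 read 15.07 and 15.11 with shCtrl and 13.85 and 13.68 with shXBP1, a log2 change of -1.33 (SE 0.10, adjusted p = 7.43e-05), and its partner KRT18 read 15.35 and 15.37 with shCtrl and 14.54 and 14.58 with shXBP1, a log2 change of -0.80 (SE 0.08, adjusted p = 0.000300). KRT13 was at -2.24 (SE 0.16), KRT15 at -1.07, and KRT23 at -1.03, and KRT80 rose by 1.21. Keratin probe sets often match several family members, and with such probe sets left out 3 of the keratins still measured fell. Of 27 cadherin, tight junction and desmosome genes 7 rose and 2 fell (4 rose without any single T47D array, and 0, 0, 0 and 1 fell without shCtrl replicate 1, shCtrl replicate 2, shXBP1 replicate 1 and shXBP1 replicate 2, and 1 without either MDA-MB-231 shCtrl replicate). The plakophilin gene PKP2 read 7.45 and 7.23 with shCtrl and 8.97 and 9.12 with shXBP1, and the tight junction gene CGN was at 1.15. The falls were MARVELD2 (-0.55) and PKP3 (-0.29).

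Of 38 Wnt genes 10 rose (5 without shXBP1 replicate 2) and 2 fell, with a median of 0.01, and 21.6% of all genes above the median of all probe sets rose. FZD5, a Wnt receptor gene, read 7.50 and 7.78 with shCtrl and 10.94 and 10.88 with shXBP1, a log2 change of 3.27 (SE 0.13, adjusted p = 8.99e-06), and its other probe set gave 1.41. FZD1 was at 2.07 (1.27 as the mean over probe sets), FZD2 at 1.82 (0.97), and FZD3 fell by 1.03. DKK1, a secreted Wnt antagonist, read 9.75 and 9.73 with shCtrl and 11.72 and 11.80 with shXBP1, and TCF7L1, a Wnt pathway transcription factor gene, fell by 0.94. Of 18 genes of the EGF family 6 rose and 2 fell (1 fell without any single array). TGFA, a ligand, read 9.27 and 9.35 with shCtrl and 7.79 and 7.83 with shXBP1 and fell by 1.49 while EREG rose, ADAM17, the sheddase that frees both ligands, rose by 1.14, and LRIG3 rose by 2.39. EGFR was at -0.29, the call that was lost in each of those fits.

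Of 36 genes of TGF-beta and BMP signalling 15 rose and 7 fell (3 fell without shCtrl replicate 2 or shXBP1 replicate 1, and 4 without shXBP1 replicate 2), with a median of 0.01. The ID genes, inhibitors of helix-loop-helix factors and BMP targets, split: ID3 read 9.55 and 9.42 with shCtrl and 11.35 and 11.41 with shXBP1, a log2 change of 1.90 (SE 0.09, adjusted p = 1.90e-05), ID1 was at 1.14, and ID2 read 13.49 and 13.40 with shCtrl and 11.79 and 11.85 with shXBP1, a log2 change of -1.63 (SE 0.21, adjusted p = 0.000971). Both ID2 probe sets fell, by 1.63 and 1.97. SMURF2, a ligase for the receptors, rose at 4 probe sets (1.43, 2.18, 1.04, 1.11), and the coreceptor gene TGFBR3 was at -1.85 (SE 0.14). Of the TGF-beta and BMP list 41.7% rose and 19.4% fell, against 21.6% and 19.4% of all genes above the median of all probe sets. Of 27 genes of integrins, laminins and matrix 7 fell (4 without shCtrl replicate 2 or shXBP1 replicate 1) and 4 rose, with LAMB1 at -1.38, -1.24 at its probe sets and the proteoglycan gene VCAN up at each of its 5 probe sets (3.18, 3.62, 1.74, 2.79, 2.42). In the integrin, laminin and matrix list 25.9% fell and 14.8% rose, against 19.4% and 21.6% of all genes above that median. The thrombospondin gene THBS1 was at 0.93 and at -0.18 (adjusted p = 0.574) with probe sets that may match several transcripts left out. The remaining rises, ITGB1 at 0.58 and SDC2 at 0.43, were at 0.22 and 0.26 as the mean over probe sets, without a call.

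Kruppel-like and SP factors, zinc finger proteins that bind GC boxes, had the highest list median, 0.28, with 10 of 24 genes up and 0 down. The rises were 41.7% of the list, against 21.6% of all genes above the median of all probe sets. An unadjusted p was under 0.05 for 12 of the 24, and 1 fell when T47D was fitted alone. KLF4 read 10.89 and 10.93 with shCtrl and 12.97 and 12.87 with shXBP1, a log2 change of 2.01 (SE 0.10, adjusted p = 2.08e-05), with its second probe set at 1.89. KLF11 and KLF10, which are induced by TGF-beta, read 8.64 and 8.73 with shCtrl and 10.73 and 10.70 with shXBP1 for KLF11 and 11.11 and 11.12 with shCtrl and 12.67 and 12.74 with shXBP1 for KLF10. KLF6 was at 1.54, 1.61, 1.59 and 1.66 at 4 of its 5 bright probe sets and at 0.38 (adjusted p = 0.105), not called, at the dimmest, and KLF3, a repressor, rose at each of its 4 (3.46, 2.26, 2.51, 0.89). Of 21 genes of the BCL2 family, which sets mitochondrial cell death, 8 rose (5 without shXBP1 replicate 1) and 0 fell, with a median of 0.20, and 13 had an unadjusted p under 0.05. BIK, a BH3-only killer, read 6.47 and 6.38 with shCtrl and 8.50 and 8.82 with shXBP1, a log2 change of 2.23 (SE 0.38, adjusted p = 0.00355), BNIP2 was at 1.73 (SE 0.13) with its other probe set at 0.43, and the killer genes BCL2L11 and BNIP3 were at 0.66 and 0.61, BCL2L11 at 0.64 (adjusted p = 0.0867) with probe sets that may match several transcripts left out. With quantile normalization applied again, 1 BCL2 family gene fell.

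Identity markers were read to check the label. The 12 markers of luminal epithelium lay between 10.2 and 15.4 in the shCtrl mean, and 11 of them, all but XBP1, lay above 10 with shXBP1 as well. Those that fell were XBP1 and TFF1, described above, KRT8 (-1.33), KRT18 (-0.80), KRT19 (-0.45) and SPDEF. They were 50% of the list, against 19.4% of all genes above the median of all probe sets. XBP1 is the target of the hairpin, so its fall was set by the design, and the share of the other markers is lower. As the mean over probe sets KRT19 was at -0.25, without a call. GATA3 at -0.03, FOXA1 at 0.12, CDH1 at 0.23 and EPCAM at 0.08 did not pass, while 6 of the 12 fell and 2 rose, both being hormone receptor genes described above (1 rose without shCtrl replicate 1 and 0 without any of the other T47D arrays). Of 11 mesenchymal markers 3 rose and 2 fell (1 rose without either shXBP1 replicate), and apart from ANXA1 and CD44 the highest value on any T47D array was 7.10, for PLAU. The rises were ANXA1 (2.71), PLAU (0.83) and SPARC (0.48), and the falls CD44 (-0.57) and ZEB1 (-0.42), and 1 fell without either shXBP1 replicate. As the mean over probe sets CD44 was at -0.22 (adjusted p = 0.120), ZEB1 at -0.03 (adjusted p = 0.922) and SPARC at 0.26 (adjusted p = 0.0987), so 0 of the list fell. A second ZEB1 probe set of like brightness was called the other way, at 0.61 (adjusted p = 0.0106). The SPARC call was lost without any single T47D array (adjusted p from 0.0543 to 0.234), the PLAU call without shCtrl replicate 1 or either shXBP1 replicate (from 0.0581 to 0.0864), and the ZEB1 call without shCtrl replicate 2 or either shXBP1 replicate (from 0.0824 to 0.128). Of 8 leukocyte markers 0 changed in limma, 0 had an unadjusted p under 0.05, and the highest stood at 6.2 in the shCtrl mean. Of 10 fibroblast markers 1 rose (COL1A1 at 0.70) and 2 fell (COL5A1 at -1.71 and THY1 at -0.31), with 0 rising and 1 falling without shCtrl replicate 1 or either shXBP1 replicate and COL5A1 at 0.27 with probe sets that may match several transcripts left out, and of 7 endothelial markers 1 fell, ESAM at -0.61. Of 11 genes often used as references 5 fell and 0 rose in limma, 8 had an unadjusted p under 0.05, and the median was -0.28. GAPDH read 14.53 and 14.46 with shCtrl and 14.01 and 13.97 with shXBP1 (-0.51) and GUSB, a lysosomal glucuronidase gene, read 11.28 and 11.36 with shCtrl and 10.82 and 10.79 with shXBP1 (-0.51). SDHA (-0.48), HPRT1 (-0.48) and PPIA (-0.36) were the others, and 3 of the list fell without shXBP1 replicate 2. As the mean over probe sets HPRT1 was at -0.21 (adjusted p = 0.147) and PPIA at -0.30 (adjusted p = 0.0596).

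In MDA-MB-231 the same hairpins changed 3410 genes (17.2%), and the effect differed between the lines for 4905 genes (24.8%), with the T47D effect above for 2326 (11.8%) and below for 2579 (13%). The number of arrays is equal in both lines. The tested difference holds the T47D change itself, so genes and lists chosen for their T47D change were apt to pass, and the values below are descriptions. ADRB1, among the 20 largest rises, did not pass, with 2.82 in T47D and 2.97 (adjusted p = 0.000230) in MDA-MB-231, a difference of -0.15 (SE 0.31, adjusted p = 0.774). PLAGL2 rose in both, by 2.66 and 1.85. AQP3, a water and glycerol channel, went opposite ways. It read 8.52 and 8.61 with shCtrl and 6.44 and 6.72 with shXBP1 in T47D, a change of -1.99 (SE 0.14, adjusted p = 6.32e-05) and of -0.85 as the mean over probe sets, against 3.53 (adjusted p = 3.63e-05) in MDA-MB-231. The matricellular gene CCN5 was at -2.09 in T47D and 1.24 in MDA-MB-231, and ZNF292 at 0.88 and -2.58.

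Among the lists, mitosis had the largest share of genes that differed between the lines. In MDA-MB-231 20 of the 51 rose and 2 fell, with a median of 0.31, and the T47D effect was below that of MDA-MB-231 for 36 and above for 0. Of the 36 that fell in T47D, 15 rose in MDA-MB-231. CDCA8 was at -1.12 and 0.49 (adjusted p = 0.00948), a difference of -1.61 (SE 0.13, adjusted p = 0.000271). TOP2A was 1 of the 2 that fell in both lines, with -1.72 in MDA-MB-231, a difference of -1.38 (SE 0.17, adjusted p = 0.00116), and the other, KIF4A, was at -0.92 and -0.50. The proteasome genes showed 0 falls and 7 rises in MDA-MB-231, and the T47D effect was below for 12 of 30. The N-glycan genes showed 10 rises and 8 falls there, and the T47D effect was below for 18 of 34. Among keratins 4 rose and 0 fell in MDA-MB-231, with 9 of 13 differences below, and KRT80 rose in both (1.21 and 1.26). KRT13, KRT15 and KRT23 had means of 5.11, 7.32 and 8.04 over all 8 arrays, against T47D shCtrl means of 7.17, 8.97 and 12.39. KRT8 and KRT18 read high over all 8, at 13.93 and 14.76. A keratin that read low in MDA-MB-231 had little room to fall there, and the part of level was not tested. For the Kruppel-like and SP factors 5 rose and 5 fell there, and the T47D effect was above for 9 of 24. The complex I genes gave 5 falls and 1 rise in MDA-MB-231 and a T47D effect below for 7 of 33.

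**Figure D5:**
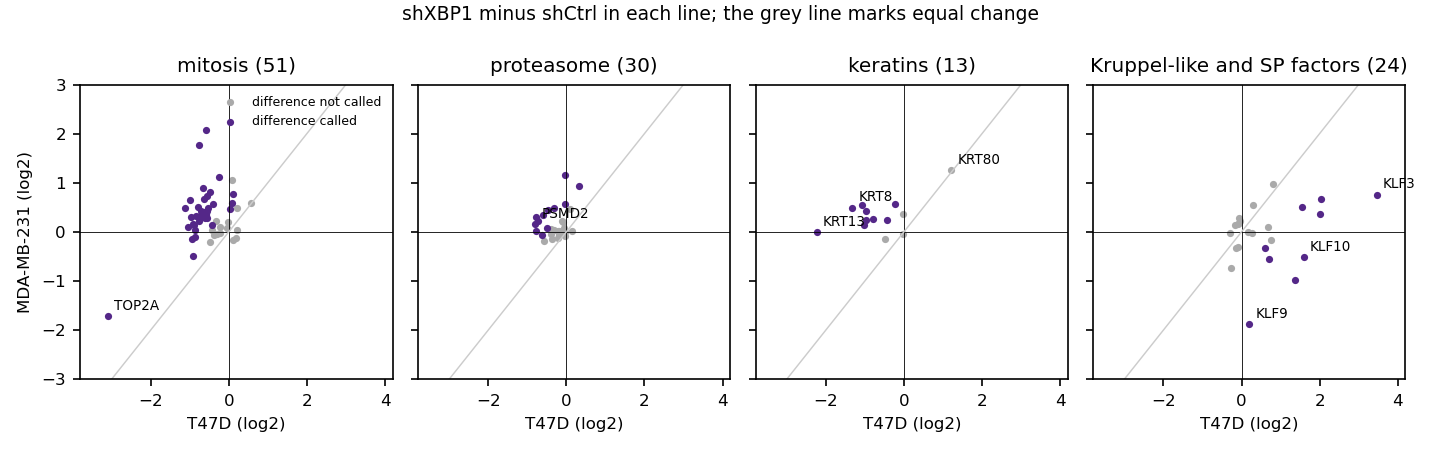
Change after knockdown (shXBP1 minus shCtrl, log2) in T47D on the horizontal and in MDA-MB-231 on the vertical axis for the members of 4 gene lists, 1 point per gene. Purple points differ between the lines by limma's test of the difference, grey points do not pass it, and most mitosis genes lie left of 0 and above the line of equal change, with TOP2A low in both.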

How the data were processed

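RNA of 8 cultures was measured on Affymetrix arrays, and the values used are those the authors deposited, on a log2 scale and normalised by RMA with affy 1.30.0 per the submitters' processing notes. Which of the arrays were normalised together is not stated in the labels. Probe sets were named from GEO's platform annotation with symbols updated through RefSeq: of 54675, 41091 had 1 symbol, 1801 several and 11721 none, and 62 were controls. Each of 19775 genes was read at its brightest single-symbol probe set. A linear model with 4 group means was fitted to all 8 arrays with limma 3.58.1 (R 4.3.3), with moderated, two-sided tests and Benjamini-Hochberg adjustment over all genes at 0.05, and was tested on simulated data. The number of arrays, 2 per group, limits the precision: the median SE of a change was 0.119, and 0.333 is the smallest p of an exact permutation test with 2 arrays on each side.

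Genes were named by rule: XBP1, the 20 largest rises and falls without overlap, the 12 rises and falls with all bright probe sets moving together, up to 5 members a list, the 8 largest differences from MDA-MB-231 each way, and HSPA5, DNAJB9, VEGFA, ESR1, PGR and CCND1. The members, the lists and this rule were chosen with earlier results of these data known. Alternatives were the replicate number as a block, the T47D arrays alone, each array left out, filters on dim genes, other probe set rules, other normalisation and another variance model. For genes named outside the rule, leaving out each array, the block and the probe set rules were run after the data were seen.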

Additional observations from a re-analysis of the deposited data

Results flagged for a closer look

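The effect of knockdown differed between T47D and MDA-MB-231, by limma's test of the difference, for XBP1 itself and for genes with the largest differences among those called in T47D. XBP1 fell further in T47D, with a difference of -1.30 (SE 0.25, adjusted p = 0.00745). The T47D effect was above that of MDA-MB-231 for CRISP3 by 4.55 (SE 0.46, adjusted p = 0.000559), for EPB41L3 by 3.99 (SE 0.16, adjusted p = 6.40e-05), for the Ras exchange factor gene RASGRP1 by 3.66 (SE 0.22, adjusted p = 0.000124) and for FZD5 by 3.47 (SE 0.18, adjusted p = 7.87e-05). It was also above for the RNA-binding protein gene CPEB2 by 3.46, the zinc finger gene ZNF292 by 3.46, PSD3 by 3.34 and EREG by 3.33. Over all 8 arrays the means of CRISP3, EPB41L3, RASGRP1 and EREG were 5.79, 4.69, 5.63 and 5.58, under the median of all probe sets, 5.96. Those of FZD5, CPEB2 and PSD3 were 8.91, 8.51 and 7.56. The part of a low level in MDA-MB-231 was not tested. VEGFA, named by rule and not for the size of its difference, also differed, by 1.13 (SE 0.16, adjusted p = 0.00182).

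The T47D effect was below that of MDA-MB-231 for AQP3, with a difference of -5.52 (SE 0.19, adjusted p = 4.61e-05). For CGA it was -4.54 (SE 0.31, adjusted p = 0.000176), for LRRC15 -4.48 (SE 0.35, adjusted p = 0.000254) and for VTCN1 -3.76 (SE 0.12, adjusted p = 4.61e-05). The differences of CCN5, HSD17B1, LINC01588 and S100A14 were -3.33, -3.32, -3.30 and -3.27. These genes were picked for their difference, so the sizes are descriptions. LRRC15, HSD17B1 and CGA had means of 6.51, 8.57 and 8.33 over all 8 arrays, against shCtrl means of 9.94, 12.52 and 10.78 in T47D. A gene that read low in MDA-MB-231 had little room for a fall of the T47D size there, and the part of level was not tested.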

How the results depend on the processing

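Of 238 genes named by rule 235 were called, 209 of these kept direction and call without each single array, and 189 did so in every alternative run. Tested one by one, 9969 probe sets were called, 5429 up and 4540 down. Without single arrays the count of genes called ran from 3890 to 5912, of rises from 2128 to 3170, of falls from 1733 to 2742 and of differences between the lines from 3337 to 4801, and the XBP1 change from -5.33 to -4.96. Over other alternatives with 1 value per gene the number called ran from 4198 to 6598.

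Direction turned with the probe set rule. As the mean over probe sets ESR1 was at -0.19, PDIA3 at -0.76 and the transporter gene ABCC5 at -0.10. With probe sets that may match several transcripts left out, KRTCAP2 was at 0.30, UBE2G2 at -0.46, SC5D at -0.35, ABCC5 at -1.85, UGT2B15 at -0.21, THBS1 at -0.18 and COL5A1 at 0.27. The cause was not tested.

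Of the counts of list members that rose or fell, 29 moved by over 1.5 times with such probe sets left out, 28 of them downward. Fewer genes are then measured. Falls were 21 for mitosis, 17 for replication, 8 for pyruvate dehydrogenase and the citric acid cycle, 5 each for glycolysis, fatty acid synthesis, ER chaperones and the translocon, 4 each for TGF-beta signalling and for integrins and matrix, 3 each for ATP synthase, keratins, luminal markers and reference genes, 1 each for junctions and ribosome biogenesis and 0 for fibroblast markers. Rises were 5 for the mitochondrial ribosome, 4 each for tRNA synthetases, ribosome biogenesis and junctions, 3 for amino acids, 2 each for replication and ATP synthase, 1 each for cholesterol, integrins and mesenchymal markers, and 0 for the translocon, ER-associated degradation and fibroblast markers. As the mean over probe sets 16 counts moved, among them 5 rises for ribosome biogenesis and 2 for integrins and matrix, and 8 falls for luminal products and 0 for junctions. With trend and robust variance 15 counts moved, all upward. As the mean over probe sets 71 of the genes named by rule moved by over 1.5 times, among them KLF3 at 2.28, EREG at 1.84, ADRB1 at 0.96, SLC4A7 at -1.51, SLC2A3 at -1.27, NDUFA7 at -0.43, PKP2 at 0.76, TGFA at -0.89, COPZ2 at -0.72, SEC11C at -0.48, EBP at -0.36, BUB1 at -0.60, SLC7A11 at 0.53 and NOLC1 at -0.44.

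The labels number the replicates alike in both hairpin groups. Deviations of same-numbered arrays correlated across genes at 0.002 in T47D and -0.069 in MDA-MB-231, over 2 pairs each. Each value sets a single replicate difference with shCtrl beside a single one with shXBP1. Such a value cannot show whether same-numbered arrays shared a culture or infection. With the replicate number as a block 4997 genes were called, 2732 up and 2265 down, the difference between lines was called for 3938, and the XBP1 adjusted p was 0.000205. The block moved 13 list counts, all downward, among them falls of complexes III and IV to 5 and of ATP synthase to 4, and rises of the mitochondrial ribosome to 3 and of the oestrogen list to 5. Genes near background may have compressed changes, and 2 arrays per group limit what small changes can be called.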
